A study of Mus musculus with 26 samples.

Results

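Fras1, Frem1, Frem2, Grip1 and Npnt are 5 of the 23152 genes that had an array probe set of their own, and they encode parts of one basement membrane adhesion system or proteins that carry or join it. They were selected as a family around Fras1, and Fras1 itself was chosen because it stood higher than with eGFP with each of the 3 MYB constructs in these same data. The values of the 5 genes in those 3 comparisons are therefore a description and carry no p-value. A gene's value is the mean log2 signal over the probe sets whose annotation names that gene alone. Such probe sets numbered 61 for Fras1, 35 for Frem1, 22 for Frem2, 31 for Grip1 and 16 for Npnt, 165 of the 233753 that name 1 gene, and none was shared with another gene.

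All arrays held total RNA of neural stem cells taken from C57BL6 wild-type mouse embryos at E14.5, an age in days of gestation, and all cells had received a transgene by lentivirus. In a first set of 18 arrays the transgene was MYBtr, MYBQKI5, MYBQKI6 or QKItr, each on 3 arrays from pools 1, 2 and 3, or the control protein eGFP, with 2 arrays in each pool. MYB is a transcription factor, QKI is an RNA-binding protein encoded by Qk in mice, and MYBQKI joins them as in the gene fusion of angiocentric glioma, a childhood brain tumour. The labels do not spell out tr. In a second set of 8 arrays every sample carried MYBQKI6, with Qk suppressed in 5 samples and LacZ, a bacterial gene used as a control target, suppressed in 3. The study asked what the fusion does to these cells and what loss of the cells' own Qk adds to it. Array medians were 5.61 to 5.74 in the first set and 5.39 to 5.51 in the second, and values were compared only within a set. The labels do not say how many embryos made up a pool, so the p-values cover only the spread among the arrayed samples, which may be technical.

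The FRAS1 and FREM proteins are very large extracellular proteins with repeated domains shared with the proteoglycan NG2. In the embryo FRAS1 and FREM2 come from epithelial cells and FREM1 mainly from the mesenchyme beneath them. The 3 proteins hold each other in place under the epithelium, where they fasten the basement membrane to the tissue below. Loss of any of them in mice gives blisters in the embryo and fused eyelids, and human FRAS1, FREM2 and GRIP1 are genes of Fraser syndrome. GRIP1 is a scaffold with several PDZ domains that brings FRAS1 and FREM2 to the cell surface and, in neurons, carries AMPA receptors. Nephronectin, the product of Npnt, is a matrix ligand of integrin alpha 8 beta 1 that binds to the FRAS1 and FREM complex in the developing kidney.

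The labelled cell type was checked against marker genes. All 7 of 7 neural stem cell markers lay above the median gene in every group, with Vim the highest and Msi1 the lowest. Of 8 epithelial markers only Krt8 did so on the first set of arrays. Of 8 vascular and fibroblast markers 1 or 2 did so in each group of that set, with Acta2 the highest at 6.14 to 6.50. Gene means of Myb were 7.23 ± 0.12 with MYBtr, 6.99 ± 0.31 with MYBQKI5, 7.46 ± 0.40 with MYBQKI6, 4.86 ± 0.42 with QKItr and 4.62 ± 0.49 with eGFP (SD, n = 3 pools each), and the probe sets may read the delivered construct.

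Fras1, which encodes the protein that gave the complex its name, was higher with every construct that holds MYB than with the constructs that do not. With eGFP and QKItr it still lay above 59.0% and 59.9% of genes. In pools 1, 2 and 3 its log2 signal was 8.69, 8.01 and 7.94 with MYBtr. With MYBQKI5 it was 7.83, 7.66 and 8.09, and with MYBQKI6 it was 8.10, 7.57 and 7.54. With QKItr it was 5.34, 5.72 and 6.15, against 5.72, 5.38 and 6.00 with eGFP. The 9 samples with a MYB construct all lay above the 6 without one, and no value fell between 6.15 and 7.54. The mean differences from eGFP were 2.51 (SE 0.25, 5.70-fold) with MYBtr, 2.16 (SE 0.25, 4.47-fold) with MYBQKI5 and 2.04 (SE 0.25, 4.10-fold) with MYBQKI6. In bulk RNA, fewer cells that make a transcript and less transcript per cell cannot be told apart.

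**Figure D1:**
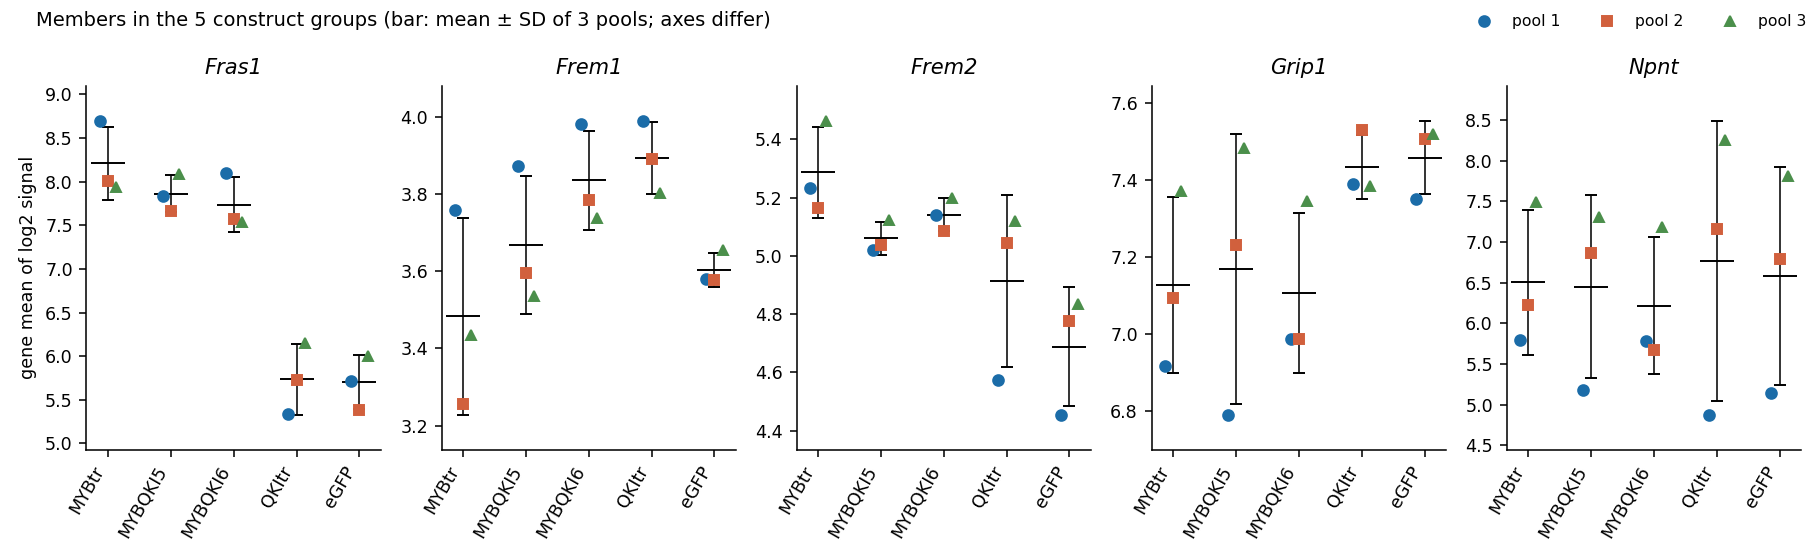
Gene mean of log2 signal of Fras1, Frem1, Frem2, Grip1 and Npnt in each construct group, with 1 point per pool (the 2 eGFP arrays of a pool averaged) and a bar for the mean ± SD of 3 pools; the vertical axes differ between panels. Fras1 with MYB constructs lies at 7.54 or higher and without them at 6.15 or lower, Frem2 is lowest with eGFP in pool 1 (4.46), and Npnt is spread by pool in every group.

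The difference was present within every pool, though not equally. Against eGFP of the same pool, Fras1 differed by 2.98, 2.62 and 1.94 in pools 1, 2 and 3 with MYBtr, by 2.12, 2.28 and 2.09 with MYBQKI5, and by 2.38, 2.19 and 1.54 with MYBQKI6. Pool 3 gave the smallest of the 3 differences with each MYB construct. Fras1 passed the test used throughout, a limma adjusted p under 0.05 over all genes, with each MYB construct. It was the only one of the 5 genes to do so, against 1.37% of all genes called with MYBtr, 0.199% with MYBQKI5 and 0.765% with MYBQKI6, and nothing is read from these counts because Fras1 was picked from these comparisons.

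Qk, read as a check of the QKItr construct, was at 11.03 ± 0.37 with QKItr and 10.78 ± 0.17 with eGFP (SD, n = 3 pools each). That difference of 0.25 (95% confidence interval -0.12 to 0.61), positive in 3 of 3 pools, was not called by limma. Whether the Qk probe sets read the construct was not tested, so the arrays did not clearly show its delivery. QKItr, which shares the eGFP arrays with the other constructs, left Fras1 at 5.74 ± 0.41, against 5.70 ± 0.31 with eGFP (SD, n = 3 pools each). The difference was 0.04 with a 95% confidence interval of -0.50 to 0.58 and a limma adjusted p of 1.00. No gene of the 23152 passed the limma test with QKItr (0% called, 362 at an unadjusted p under 0.05), and so none of the 5. With the pool as a block no gene was called either, and 1064 were at an unadjusted p under 0.05.

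The 3 MYB constructs were also set against each other. Fras1 with MYBQKI6 was lower than with MYBtr in 3 of 3 pools, by -0.60, -0.43 and -0.40, but the mean difference of -0.48 had a confidence interval of -1.02 to 0.06 and a limma adjusted p of 1.00. Between MYBQKI5 and MYBtr it was -0.35 (-0.89 to 0.19), and between MYBQKI6 and MYBQKI5 it was -0.13 (-0.67 to 0.41), both with an adjusted p of 1.00. In each of these 3 comparisons 0% of genes were called by limma (849, 604 and 404 genes at an unadjusted p under 0.05 for MYBQKI5 against MYBtr, MYBQKI6 against MYBtr and MYBQKI6 against MYBQKI5). With the pool as a block no gene was called either, with 1926, 1437 and 1017 at an unadjusted p under 0.05 in the same order. The intervals leave room for a difference of 1.02 on the log2 scale between MYBQKI6 and MYBtr.

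The Fras1 difference was spread over its probe sets. These values come from the comparisons that picked Fras1 and are a description. All 61 stood higher than with eGFP with each of the 3 MYB constructs. Their differences ran from 0.37 to 3.93 with a median of 2.61 with MYBtr, from 0.02 to 3.46 (median 2.26) with MYBQKI5, and from 0.14 to 3.24 (median 2.05) with MYBQKI6. With QKItr, 36 were higher and 25 lower. The 3 pools lay wholly above those of eGFP in 59, 57 and 57 probe sets with MYBtr, MYBQKI5 and MYBQKI6. The share of all probe sets that did so is not given here, and nothing is read from these counts.

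With QKItr the limma test over all 269751 probe sets called 0 of the 61 Fras1 probe sets, where 0.00222% of all were called (6 probe sets). The probe sets of a gene read the same RNA and are not replicates. With MYBtr the largest difference was that of probe set 17439416 (3.93) and the smallest that of probe set 17439443 (0.37), which was also the dimmest with eGFP at 2.69. Between constructs, 60 of 61 probe sets were lower with MYBQKI6 than with MYBtr, 58 were lower with MYBQKI5 than with MYBtr, and 48 were lower with MYBQKI6 than with MYBQKI5. No Fras1 probe set was called in these comparisons. The counts restate gene differences that were not called either.

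**Figure D2:**
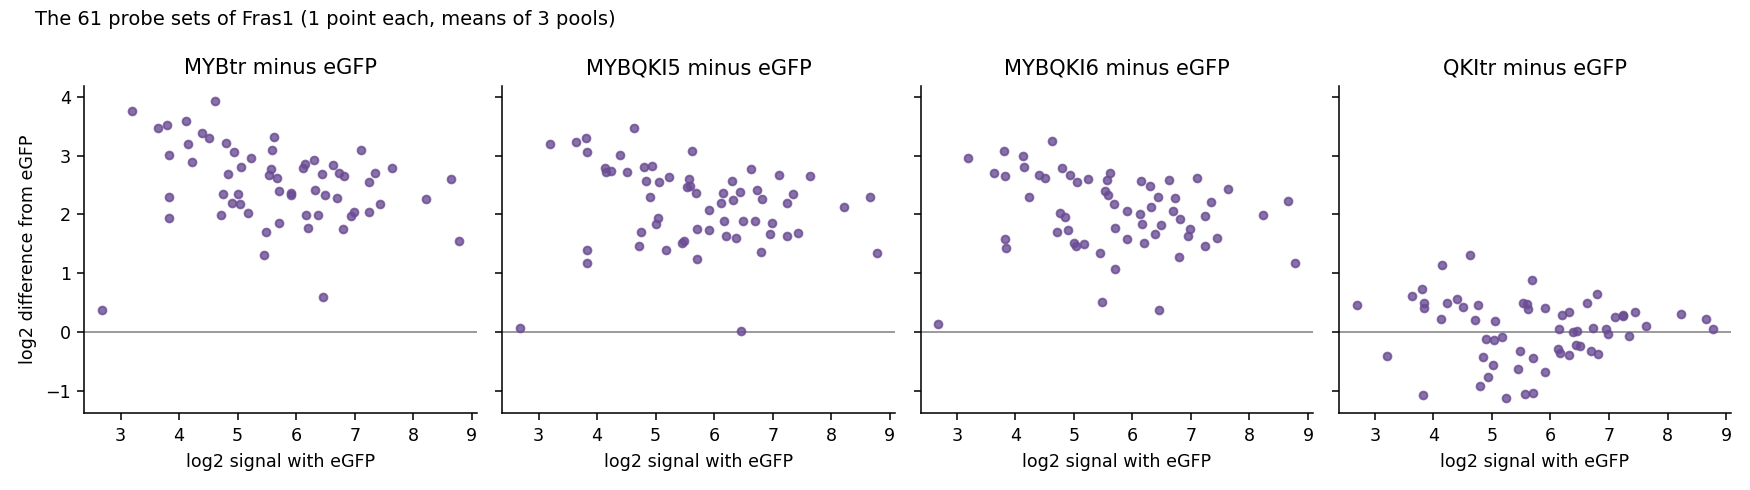
Difference from eGFP (vertical axis, log2) of each of the 61 Fras1 probe sets against its log2 signal with eGFP (horizontal axis), in 1 panel per construct; each point is a probe set, from the means of 3 pools. With the MYB constructs every point lies above 0, with medians of 2.61, 2.26 and 2.05, while with QKItr 36 lie above and 25 below.

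Frem2, whose product pairs with FRAS1 in the same complex, was higher with the MYB constructs than with eGFP by a much smaller amount. The promoter of Frem2 is printed here because Frem2 is the other member whose samples with MYB lay above those with eGFP for all 3 constructs, and because AACNG is the core of the known MYB binding motif. The share of all genes that lay so is not given here, and nothing is read from that separation. The RefSeq promoter table gives windows from 250 bases before to 50 after a gene start, and 4 of the 5 genes matched it, all but Fras1, with 8 windows. The Frem2 window is on the minus strand of GRCm38.p6 at chr3:53657306-53657605. Matches to AACNG on either strand are in capitals:

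Frem2 promoter: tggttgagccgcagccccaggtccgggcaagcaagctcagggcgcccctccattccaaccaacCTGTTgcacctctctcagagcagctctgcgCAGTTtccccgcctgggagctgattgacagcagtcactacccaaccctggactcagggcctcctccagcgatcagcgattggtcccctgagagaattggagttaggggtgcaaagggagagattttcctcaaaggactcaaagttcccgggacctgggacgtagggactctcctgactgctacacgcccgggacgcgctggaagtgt

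The window holds 2 matches, both on the other strand, starting -187 and -157 bases from the gene start, and none to the stricter AACGG. Of all 32851 windows of this length, 80.3% hold AACNG and 17.4% hold AACGG, so a match to the shorter motif is usual. Both Npnt windows hold 0 matches to AACNG, the 2 Frem1 windows hold 6 and 4, and the 3 Grip1 windows hold 0, 3 and 1. AACGG occurs 2 times in one Frem1 window and in no other of the 8. A match describes letters and does not show binding.

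In pools 1, 2 and 3, Frem2 had a log2 signal of 5.23, 5.16 and 5.46 with MYBtr, 5.02, 5.04 and 5.12 with MYBQKI5, and 5.14, 5.08 and 5.20 with MYBQKI6. It had 4.58, 5.04 and 5.12 with QKItr, against 4.46, 4.78 and 4.83 with eGFP. All 9 samples with a MYB construct lay above the 3 eGFP values, while those with QKItr overlapped both. The differences from eGFP were 0.60 (SE 0.15, 1.51-fold) with MYBtr, 0.37 (1.29-fold) with MYBQKI5 and 0.45 (1.37-fold) with MYBQKI6.

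Frem2 did not pass the test with any construct in the fit without pools. With the pool number as a block it passed with MYBtr, so that 2 of the 5 genes were called where 5.97% of all genes were (1383 in place of 317). That call was lost when pool 1 of MYBtr or pool 1 of eGFP was left out of the blocked fit. Pool 1 had the lowest eGFP value and the largest difference with each MYB construct (0.78, 0.56 and 0.69 with MYBtr, MYBQKI5 and MYBQKI6), against 0.26 to 0.63 in the other pools. The 2 eGFP arrays of a pool differed by 0.25 to 0.29 in Frem2, nearly as far as the 0.38 between the lowest and highest pool.

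The 22 Frem2 probe sets were less uniform than those of Fras1. With MYBtr 20 were higher and 2 lower than with eGFP, with MYBQKI5 15 and 7, with MYBQKI6 18 and 4, and with QKItr 15 and 7. Probe set 17405213 was among the 2 largest differences with each MYB construct, at 2.01, 1.53 and 1.96 with MYBtr, MYBQKI5 and MYBQKI6, and it differed by 1.30 with QKItr. The QKItr difference of the whole gene was 0.22 (95% confidence interval -0.11 to 0.56, limma adjusted p = 1.00).

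**Figure D3:**
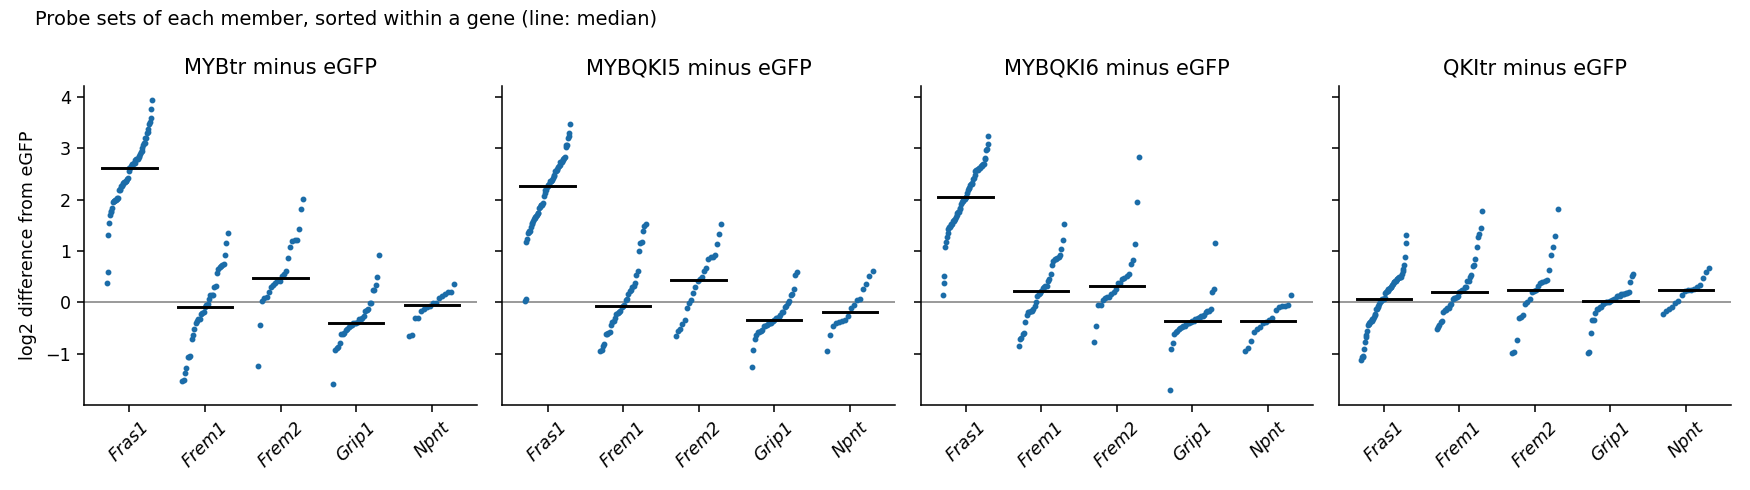
Difference from eGFP (vertical axis, log2) of every probe set of the 5 genes, 1 panel per construct; points are probe sets sorted within a gene and lines are medians over probe sets. The medians with MYBtr are 2.61 for Fras1, -0.08 for Frem1, 0.47 for Frem2, -0.40 for Grip1 and -0.05 for Npnt.

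Frem1, the third large protein of the complex, was dim throughout. Its log2 signal in pools 1, 2 and 3 was 3.76, 3.26 and 3.44 with MYBtr, 3.87, 3.60 and 3.54 with MYBQKI5, 3.98, 3.78 and 3.74 with MYBQKI6, and 3.99, 3.89 and 3.80 with QKItr, against 3.58, 3.58 and 3.65 with eGFP. With eGFP, 22 of its 35 probe sets lay in the lowest 25% of all probe sets, and in the other groups of this set 18 to 21 did. Values with MYBQKI6 and with QKItr lay just above eGFP in all pools, by means of 0.23 and 0.29, and the interval for QKItr was -0.02 to 0.60 (limma adjusted p = 1.00), or 0.046 to 0.53 with the pool as a block (adjusted p = 0.989). Frem1 was higher with MYBQKI6 than with MYBtr in 3 of 3 pools, by a mean of 0.35 (95% confidence interval 0.04 to 0.66), which failed the correction (adjusted p = 1.00). Frem3, the remaining gene of the family and named here after its values were seen, was dimmer still, at 3.05 to 3.20 in the construct groups, and it did not pass the test in any comparison.

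Grip1, the scaffold that delivers FRAS1 and FREM2 to the surface, was slightly lower with the MYB constructs. Its log2 signal in pools 1, 2 and 3 was 6.92, 7.09 and 7.37 with MYBtr, 6.79, 7.23 and 7.48 with MYBQKI5, and 6.99, 6.99 and 7.35 with MYBQKI6. It was 7.39, 7.53 and 7.38 with QKItr, against 7.35, 7.50 and 7.52 with eGFP. Each MYB construct gave a lower value than eGFP in 3 of 3 pools, but only MYBQKI6 lay wholly below the eGFP values.

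The Grip1 differences from eGFP were -0.33, -0.29 and -0.35 with MYBtr, MYBQKI5 and MYBQKI6 (SE 0.18 each) and -0.02 with QKItr (95% confidence interval -0.40 to 0.35, limma adjusted p = 1.00). None of the 3 MYB construct differences passed the test. Of its 31 probe sets, 26, 25 and 28 were lower with MYBtr, MYBQKI5 and MYBQKI6, and 12 with QKItr. In pool 2 all 31 were lower with MYBQKI6 than with eGFP, while in pool 3 this held for 20. Grip1os2, an antisense gene of Grip1 that was looked at for its name, has 3 probe sets of its own and differed by -0.18, 0.04 and -0.07 with these constructs, and the labels do not state the strand that was labelled.

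Npnt varied more between pools than between constructs. In pools 1, 2 and 3 its log2 signal was 5.79, 6.22 and 7.50 with MYBtr, 5.18, 6.87 and 7.31 with MYBQKI5, and 5.79, 5.67 and 7.19 with MYBQKI6. It was 4.88, 7.16 and 8.26 with QKItr, against 5.14, 6.79 and 7.81 with eGFP. Pool 3 was the highest in all 5 groups. The eGFP pools had an SD of 1.35, larger than that of 99.7% of genes, and spanned 2.67, while the 2 eGFP arrays of one pool differed by 0.002 to 0.28.

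All 16 Npnt probe sets were lower in pool 1 than in pool 3 with eGFP and with QKItr, and 15 of 16 were with each MYB construct. The labels do not say how the pools differ. The mean differences from eGFP were -0.08, -0.13 and -0.37 with MYBtr, MYBQKI5 and MYBQKI6 and 0.18 with QKItr (SE 0.85 each). The QKItr interval was -1.64 to 2.00 (limma adjusted p = 1.00), and with the pool as a block it was -0.56 to 0.93 (SE 0.35, adjusted p = 0.990). Those means average opposite signs. Within pools 1, 2 and 3, Npnt differed from eGFP by 0.65, -0.57 and -0.32 with MYBtr, by 0.03, 0.08 and -0.50 with MYBQKI5, by 0.64, -1.11 and -0.63 with MYBQKI6, and by -0.27, 0.37 and 0.44 with QKItr. With MYBtr 15 of 16 probe sets were higher than eGFP in pool 1 and 15 of 16 lower in pool 2. Elsewhere the probe sets were split: with MYBQKI5 9 were higher and 7 lower in pool 1, and 8 and 8 in pool 2. With QKItr 7 were higher and 9 lower in pool 1.

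**Figure D4:**
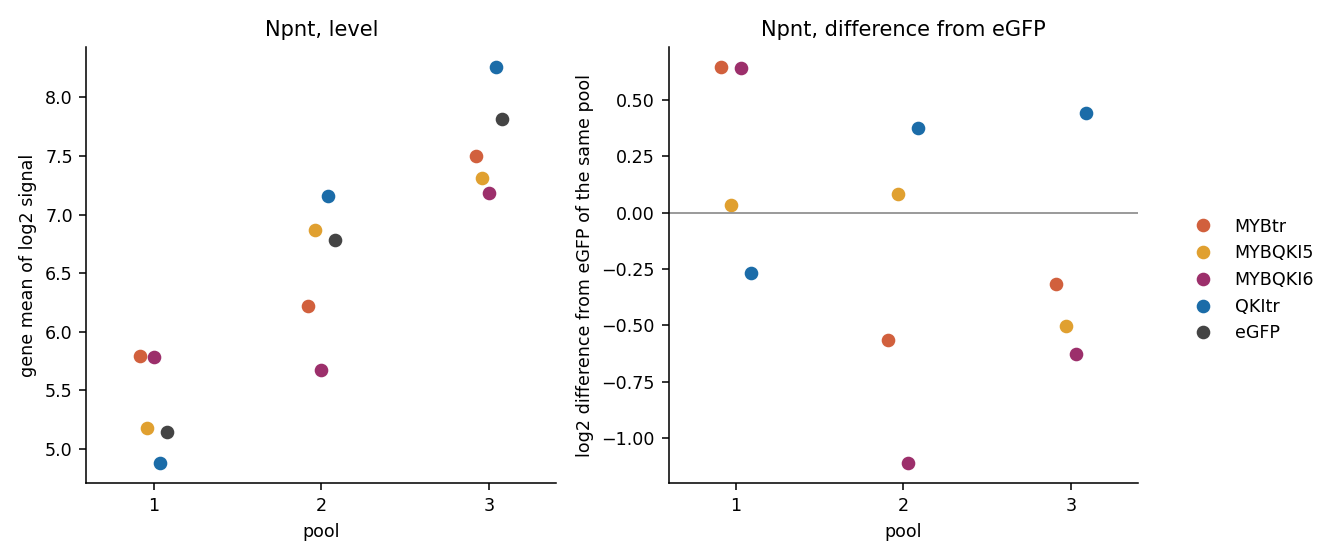
Npnt by pool: on the left the gene mean of log2 signal in each construct group, on the right the log2 difference of each construct from eGFP of the same pool; each point is 1 pool (the 2 eGFP arrays averaged). With eGFP the pools stand at 5.14, 6.79 and 7.81, and MYBtr and MYBQKI6 lie above 0 in pool 1 and below 0 in pools 2 and 3.

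The suppression arrays were not used to choose the genes, and there the tests stand on their own. Qk itself, the suppressed gene, had a log2 signal of 9.35, 9.30, 9.46, 9.70 and 9.58 in the 5 samples with Qk suppressed, against 9.68, 9.70 and 9.74 with LacZ suppressed. It was lower than every LacZ sample in 4 of the 5, and the mean difference of -0.22 was not called (limma adjusted p = 1.00, exact two-sided permutation p = 0.107). So the targeted gene was not shown to be lower in the libraries labelled as Qk suppressed. Every sample carried MYBQKI6, and whether the Qk probe sets read that construct was not tested. A design of 5 against 3 allows an exact two-sided p of 0.0357 at the lowest. Neither the permutation test nor the limma fit without a block takes account of the second number in the sample titles. Samples that share that number deviated together.

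Fras1 was bright in this set, above 99.0% of genes with Qk suppressed and 99.2% with LacZ suppressed. All of these cells carried MYBQKI6, so its part in that level cannot be told from this set. Its log2 signal was 9.23, 9.83, 9.49, 9.54 and 9.55 with Qk suppressed, against 9.73, 9.69 and 9.26 with LacZ suppressed. The groups overlapped fully and differed by -0.03 (95% confidence interval -0.42 to 0.36, limma adjusted p = 1.00, exact permutation p = 0.857). Of its probe sets 22 were higher and 39 lower with Qk suppressed.

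Frem2 had 4.76, 5.63, 5.24, 5.10 and 4.91 with Qk suppressed, against 5.36, 5.09 and 5.03 with LacZ suppressed, a difference of -0.03 (-0.47 to 0.41, exact permutation p = 0.893). Frem1 had 3.79, 3.55, 3.64, 3.87 and 3.83, against 3.65, 3.47 and 3.65 with LacZ suppressed, a difference of 0.14 (-0.17 to 0.46, exact permutation p = 0.214). Both pairs of groups overlapped. Grip1 had 6.90, 6.38, 6.77, 6.30 and 6.82 with Qk suppressed, against 6.52, 7.20 and 6.90 with LacZ suppressed, a difference of -0.24 (-0.68 to 0.20, exact permutation p = 0.286). Npnt had 5.93, 5.80, 5.20, 5.32 and 5.55, against 5.59, 6.22 and 5.43 with LacZ suppressed, a difference of -0.19 (-0.68 to 0.30, exact permutation p = 0.500). None of the 5 genes was called, with a limma adjusted p of 1.00 for each, and 0.00432% of all genes were (1 gene, with 946 at an unadjusted p under 0.05). With the second title number as a block 1 gene was called and 1734 were at an unadjusted p under 0.05. The intervals above, from the fit without that block, do not exclude differences of up to 0.68 on the log2 scale for Grip1 and Npnt. With the block the intervals were -0.48 to 0.10 for Grip1 and -0.47 to 0.24 for Npnt.

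**Figure D5:**
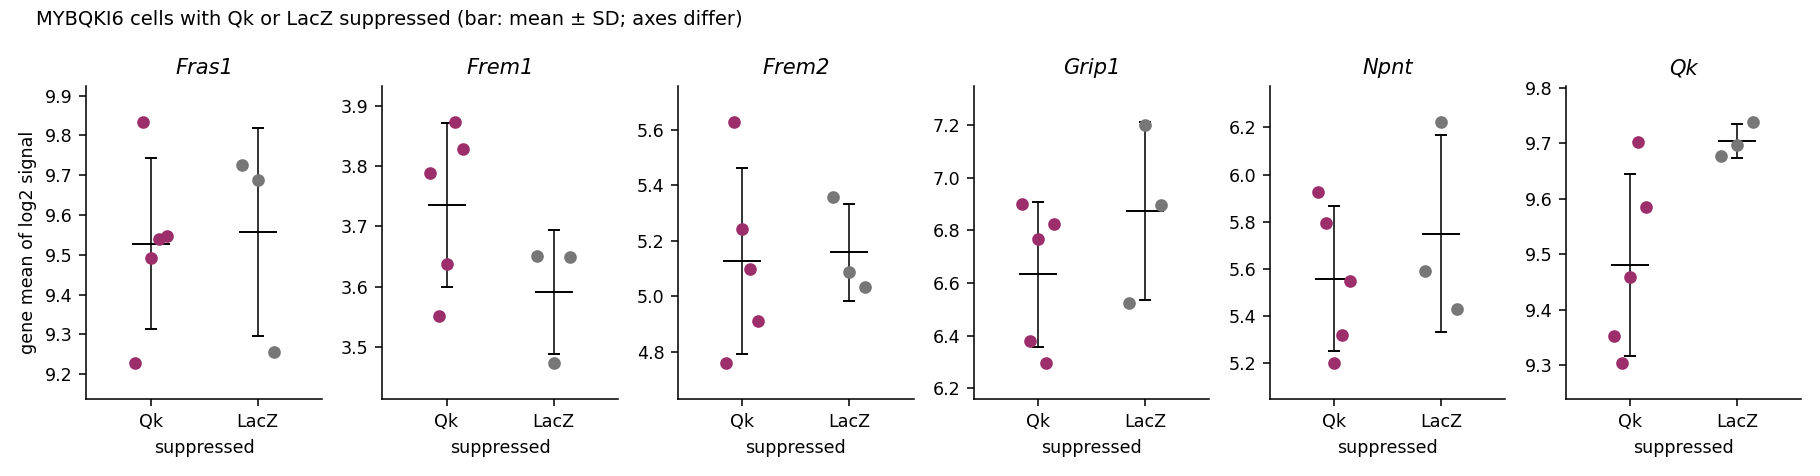
Gene mean of log2 signal of the 5 genes and of Qk in cells with MYBQKI6 and either Qk (left, 5 samples) or LacZ (right, 3 samples) suppressed; points are samples, bars are mean ± SD, and the vertical axes differ between panels. The groups overlap in every panel, and 4 of 5 Qk-suppressed samples lie below the LacZ samples in Qk itself.

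The wider pathway was described with gene lists. These lists were chosen with earlier results of these data known, so the p-values of their genes are not independent support. Of 13 genes of the FRAS and FREM complex and its partners, which include the 5 members, all were measured and Fras1 alone was called, with each MYB construct; with the pool as a block Frem2 joined it with MYBtr. The list's median difference was -0.08, 0.01 and 0.06 with MYBtr, MYBQKI5 and MYBQKI6, beside -0.01, -0.01 and -0.005 over all genes. Of 16 basement membrane components, among them laminin, nidogen and collagen IV chains, perlecan and dystroglycan, 0 were called in any of the 8 comparisons, with or without the pool as a block. Their median difference was -0.01, -0.001 and 0.01 with the 3 MYB constructs.

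Among 8 integrin chains that bind RGD ligands such as nephronectin, 1 rose and 1 fell with MYBtr, where 0.898% of all genes rose and 0.471% fell. Itga8 and Itgb1, which encode the chains of integrin alpha 8 beta 1, were not called, with differences of -0.08 and -0.23 with MYBtr. Itga8 was dim, at 3.64 with MYBtr and 3.72 with eGFP. Itga5, the alpha chain of the main fibronectin receptor, rose by 1.61 (SE 0.29, 3.06-fold, limma adjusted p = 0.0171), with 7.73 ± 0.20 in MYBtr cells and 6.12 ± 0.44 in eGFP cells (SD, n = 3 pools each). Itgb8, the beta chain that pairs with alpha V, fell by 1.27 (SE 0.25, limma adjusted p = 0.0225), with 7.86 ± 0.51 in MYBtr cells and 9.13 ± 0.31 in eGFP cells. With MYBQKI5 and MYBQKI6 neither passed (adjusted p = 0.133 and 0.0685 for Itga5, 0.218 and 0.159 for Itgb8), but both did with each construct once the pool was a block, with differences of 1.21 and 1.26 for Itga5 and -0.90 and -0.89 for Itgb8, where 2.63% and 4.39% of all genes were called. Itga5 with MYBQKI6 also passed after quantile normalization (adjusted p = 0.0461). The Itga5 call with MYBtr was lost without pool 1 or 3 of eGFP or pool 1 or 2 of MYBtr (differences of 1.47 to 1.68, adjusted p = 0.0559 to 0.109), and with the brightest probe set (1.38, adjusted p = 0.0546). The Itgb8 call was lost without any single pool of these groups other than pool 3 of MYBtr (-1.42 to -1.05, adjusted p = 0.0547 to 0.128), and with the brightest probe set (-1.34, adjusted p = 0.0542). All 3 comparisons share the eGFP arrays.

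Of 7 proteins described to bind GRIP1, Cspg4 was called with MYBtr and MYBQKI6, where 1.37% and 0.765% of all genes were. It encodes NG2, the proteoglycan whose repeats the FRAS and FREM proteins share. Cspg4 fell by 1.34 with MYBtr (SE 0.27, limma adjusted p = 0.0273) and, in cells given MYBQKI6, by 1.36 (adjusted p = 0.0369), with 6.04 ± 0.40 and 6.02 ± 0.29, against 7.38 ± 0.16 with eGFP (SD, n = 3 pools each). Its difference of -1.19 with MYBQKI5 passed only with the pool as a block (adjusted p = 0.111 without it and 0.00592 with it). Without the block, each Cspg4 call was lost when any single pool but pool 3 of the construct was left out (-1.40 to -1.16 with MYBtr, adjusted p = 0.0752 to 0.137, and -1.42 to -1.22 with MYBQKI6, adjusted p = 0.104 to 0.186). Both calls were also lost by the median probe set (-1.47 and -1.33 with MYBtr and MYBQKI6, adjusted p = 0.0726 and 0.137) and by the brightest (-1.70 and -1.63, adjusted p = 0.144 and 0.219). The block also added Gria2, an AMPA receptor subunit, with the 3 MYB constructs (-0.83, -0.82 and -1.09, limma adjusted p = 0.0242, 0.0448 and 0.00697). It added Ephb2, an ephrin receptor, with MYBtr (-0.44, adjusted p = 0.0477). With the block 5.97%, 2.63% and 4.39% of all genes were called with MYBtr, MYBQKI5 and MYBQKI6. Without it the adjusted p was 0.492, 0.716 and 0.308 for Gria2 and 0.206 for Ephb2.

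Among markers of the cells, only Nes and Vim were called, and only with the pool as a block. Without the block 0 of 7 neural stem cell markers were called. With the block Nes was lower (-1.04, -0.96 and -1.11 with MYBtr, MYBQKI5 and MYBQKI6) and Vim higher (0.51, 0.39 and 0.47), where 5.97%, 2.63% and 4.39% of all genes were called. The median difference of the 7 markers was 0.002, -0.001 and 0.07 with these constructs. The part of Nes and Vim in the Fras1 difference was not tested. The summed log2 level of the 7 markers was 64.8 to 67.9 with MYBtr, 66.2 to 67.5 with MYBQKI5, 65.3 to 67.4 with MYBQKI6, 66.9 to 67.5 with QKItr and 67.0 to 67.9 with eGFP. Of the 8 epithelial and the 8 vascular and fibroblast markers 0 were called in any comparison, with or without the block.

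The genes whose values followed those of Fras1 most closely over the 15 pool and construct columns were Itm2a, an integral membrane protein gene (Pearson r = 0.983), Prelp, which encodes a proteoglycan of the matrix (0.980), Anks1, which encodes an ankyrin repeat protein (0.979), Uaca (0.974) and Dbn1, which encodes the actin-binding protein drebrin (0.971). These columns share pools and fall into those with and without MYB, so r describes that split. For Itm2a the means were 9.25, 8.84 and 9.02 with MYBtr, MYBQKI5 and MYBQKI6 and 7.46 with QKItr, against 7.52 with eGFP. Those most like Npnt were Zfp395 (0.951), Chrdl1 (0.950) and D10Wsu52e, now named Rtcb (0.949). The columns share Npnt's spread between pools, and with pool means removed r was 0.770, 0.694 and 0.790 for these 3 genes.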

How the data were processed

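Biotin-labelled total RNA was read on Affymetrix arrays, per the labels. The authors deposited log2 values for 269751 probe sets on 26 arrays, a scale read from their range of 0.22 to 14.6. Their normalization and the genome build of the array are not given in the sources used here, and array medians differ between the 2 sets, so no test crossed them. The number of arrays limits the precision.

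Probe sets were named from the platform annotation (5106 with several symbols and 30892 with none were left out of gene means), and a gene's value was the mean over its own probe sets, with no filter on dim signal. In each pool the mean of the 2 eGFP arrays counted as 1 value. Group means of the 15 resulting columns, and apart from them of the 8 suppression arrays, were fitted with limma 3.58.1 (lmFit, contrasts.fit, eBayes) in R 4.3.3 and data.table, version 1.17.8, and p-values were adjusted by Benjamini-Hochberg over all 23152 genes, or all probe sets, at a threshold of 0.05. Folds are 2 raised to the size of the log2 difference. The fit was tested on simulated data. For Qk suppression an exact permutation test, two-sided, was added for each gene. Promoter sequences are those of RefSeq.

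Samples that share a pool number, or the second number of a suppression title, deviated together: 30 pool pairs had correlations of 0.31 to 0.72 and 5 suppression pairs 0.22 to 0.57, against medians of -0.23 and -0.21 for the other pairs. Gene values with that number as a block are given where they change a call or move a printed total by over 1.5 times. Some stand in the closing section rather than beside the result.

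The members and lists were chosen with earlier results of these data known. Named genes were the 5 members, Myb, Qk, list genes that were called (at most 4 a list and comparison), the highest and lowest genes of marker lists, the 5 genes most correlated with Fras1 and the 3 with Npnt, leaving out predicted genes. Alternatives were the block, the median or the brightest probe set, dim probe sets left out, quantile normalization and each replicate left out. Figures used Python 3.11.15, pandas 2.3.3 and matplotlib 3.10.9.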

Additional observations from a re-analysis of the deposited data

How the results depend on the processing

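Fras1 was called with each of the 3 MYB constructs under every alternative and without any single pool, at 2.27 to 2.66 with MYBtr, 2.00 to 2.31 with MYBQKI5 and 1.85 to 2.18 with MYBQKI6 when pools were left out. This is no support for the difference, because Fras1 was chosen from these comparisons. With MYBQKI5 its brightest probe set gave 2.30. The replicate block raised the members called with MYBtr to 2 (Frem2 joined, at 0.48 to 0.68 with a pool left out) and the genes called to 1383, 609 and 1017 with MYBtr, MYBQKI5 and MYBQKI6, against 317, 46 and 177 without it, and it changed no other call of a member. Other summaries called fewer genes: 179, 24 and 80 by the median probe set, and 100, 18 and 47 by the brightest. Quantile normalization called 341, 70 and 204 genes.

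Differences of members that turned their sign all stayed uncalled, and the cause was not tested. By the brightest probe set they were Frem1 and Npnt with MYBtr (0.14 and 0.16) and with MYBQKI5 (-0.23 and 0.51), Grip1 with QKItr (0.0080), Frem1, Frem2 and Npnt between MYBQKI5 and MYBtr (-0.38, 0.043 and 0.35), Frem2 and Grip1 between MYBQKI6 and MYBtr (0.12 and 0.17), and Fras1, Frem1 and Npnt with Qk suppressed (0.069, -0.23 and 0.0095). By the median probe set they were Frem1 with MYBtr (0.0092), Npnt with QKItr (-0.057) and Frem2 between MYBQKI6 and MYBQKI5 (-0.17). Without dim probe sets they were Grip1 with QKItr (0.042), Grip1 between MYBQKI5 and MYBtr (-0.082) and Frem2 with Qk suppressed (0.073). With a replicate left out, Npnt gave -0.80 to 0.54 with MYBtr, -0.85 to 0.51 with MYBQKI5 and -1.08 to 0.25 with MYBQKI6, and Frem1 gave -0.039 to 0.13 with MYBQKI5. QKItr gave -0.17 to 0.24 for Fras1, -0.079 to 0.0063 for Grip1 and -0.56 to 1.13 for Npnt. MYBQKI5 against MYBtr gave -0.12 to 0.23 for Grip1 and -0.48 to 0.59 for Npnt, and MYBQKI6 against MYBtr gave -0.14 to 0.10 and -0.77 to 0.21. MYBQKI6 against MYBQKI5 gave -0.25 to 0.10 for Grip1 and -0.87 to 0.19 for Npnt. Qk suppression gave -0.18 to 0.056 for Fras1, -0.16 to 0.069 for Frem2 and -0.35 to 0.046 for Npnt. The blocked fits that left out a pool were chosen after seeing the data. Dim signal limits Frem1 and Frem3, and the pool spread limits Npnt.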
